A study of Mus musculus with 24 samples.

Results

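The canonical Wnt pathway acts through beta-catenin, and 10 of its genes were examined in hindlimb buds of Nipbl+/- and wild type mouse embryos. They are Ctnnb1, which encodes beta-catenin, Apc and Axin1 of the complex that destroys it, the DNA-binding partners Lef1, Tcf7l1 and Tcf7l2, and the feedback inhibitors Axin2, Nkd1, Znrf3 and Rnf43. Each gene was taken from the array probe set whose single annotated symbol is that gene, and from the brightest one where a gene has several. All 10 genes were measured, each by 1 probe set, among 19937 genes in all. The question was whether transcripts of the pathway, above all its feedback targets, differed between the genotypes.

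Without a Wnt signal, a complex built on Axin and Apc marks beta-catenin for destruction. With a signal, beta-catenin persists, enters the nucleus and turns Tcf and Lef proteins into activators, and genes such as Axin2, Nkd1, Znrf3 and Lef1 are widely used as transcriptional readouts of this step. In the limb bud the pathway acts in the ectoderm, where it is needed for the apical ectodermal ridge, and in the mesenchyme beneath it.

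RNA of both hindlimb buds was hybridised to 1 Affymetrix Mouse Gene 1.0 ST array per embryo, from 12 Nipbl+/- and 12 wild type embryos at E10.5, in mid-gestation. Nipbl+/- embryos carry 1 mutant allele of Nipbl, the cohesin loading factor, in all their cells and were of the RRS strain, and no agent was given to either genotype. Values are log2 intensities, so a difference of 1 is a doubling. RNA came from whole buds, in which fewer cells of a type and less RNA per cell cannot be told apart, and the count of 12 arrays per genotype limits how small a difference can be seen.

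Nipbl itself, the check of the genotype labels, had log2 intensities of 9.54 to 9.97 (median 9.89) in Nipbl+/- embryos and 10.32 to 10.72 (median 10.53) in wild type embryos, without overlap. Its log2 difference, Nipbl+/- minus wild type, was -0.67 (95% interval -0.77 to -0.57, limma, adjusted p = 2.42e-09). The 8 markers of limb mesenchyme had mean log2 intensities between 11.17 and 11.39 in Nipbl+/- and between 11.23 and 11.39 in wild type embryos, and none of them passed the test. Of 12 markers of ectoderm and ridge, the keratin Krt5 was lower in Nipbl+/- (log2 difference -0.31, adjusted p = 0.00171 from limma), and none passed as higher. The list as a whole did not go the way of Krt5, with 8 differences positive, 4 negative and a median of 0.02. At an unadjusted p under 0.05 from limma, 2 of these markers were higher and 1 was lower. Of all genes, 4.13% were higher and 5.14% lower at that level, and 0.286% were higher and 0.527% lower at an adjusted p under 0.05. The mean level of the list ran from 8.72 to 9.12 in Nipbl+/- and from 8.78 to 8.97 in wild type embryos. No marker of muscle precursors, endothelium, erythroid cells, macrophages, or neural crest and Schwann cells passed. All 4 macrophage markers had lower means in Nipbl+/- (mean level of the list 6.55 to 6.86 in Nipbl+/- and 6.66 to 6.97 in wild type embryos). At an unadjusted p under 0.05 from limma, 2 of these 4 were lower and 0 higher, against the same shares of all genes. At that level 1 muscle precursor marker was higher and 1 limb mesenchyme marker was lower. All 5 muscle precursor markers and the 2 measured markers of neural crest and Schwann cells had higher means in Nipbl+/-. Whether these marker levels play a part in the values below was not tested.

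The arrays differed in the spread of their values. The interquartile range of an array ran from 3.40 to 3.84 in Nipbl+/- and from 3.34 to 3.78 in wild type, and the 4 arrays of smallest range were Nipbl+/- embryos 2 and 9 and wild type embryos 3 and 4. Xist exceeded the Y-linked genes by more than 3 log2 units in 3 of 12 Nipbl+/- and 8 of 12 wild type embryos, so the sexes were not balanced. Nipbl+/- embryo 9 had the lowest value of all 24 embryos for Axin2, Znrf3, Nkd1 and Tcf7l1.

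No gene of the 10 passed the test for a difference in mean between the genotypes. In limma with Benjamini-Hochberg adjustment over all genes, 0 of 10 passed an adjusted p under 0.05, against 0.813% of all 19937 genes (0.286% higher and 0.527% lower in Nipbl+/-). At an adjusted p under 0.25 the count was 0 of 10, against 3.12% of all genes. At an unadjusted p under 0.05 it was again 0 of 10, against 9.26% of all genes (4.13% higher and 5.14% lower), and an equal-variance t-test on linear values gave 0 at each of these levels. With only 10 genes, counts of 0 lie near these shares. The log2 differences of the 10 genes ran from -0.09 to 0.09 with a median of -0.02, and the median over all genes was -0.0049. As ratios of Nipbl+/- to wild type they lay between 0.942 and 1.07. The 95% intervals of the 10 ratios, taken one gene at a time, stayed between 0.869 and 1.15. These are ratios of array intensity and do not bound the change in transcript level. For other genes, such as Shh and Hoxd13, the authors report larger changes by Q-RT-PCR than by microarray, though not for Nipbl. The median standard error of these genes was 0.037 against 0.054 over all genes. For Tcf7l2, Lef1 and Znrf3, whose differences were the largest, it was 0.056, 0.054 and 0.053, near the median over all genes.

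**Figure D1:**
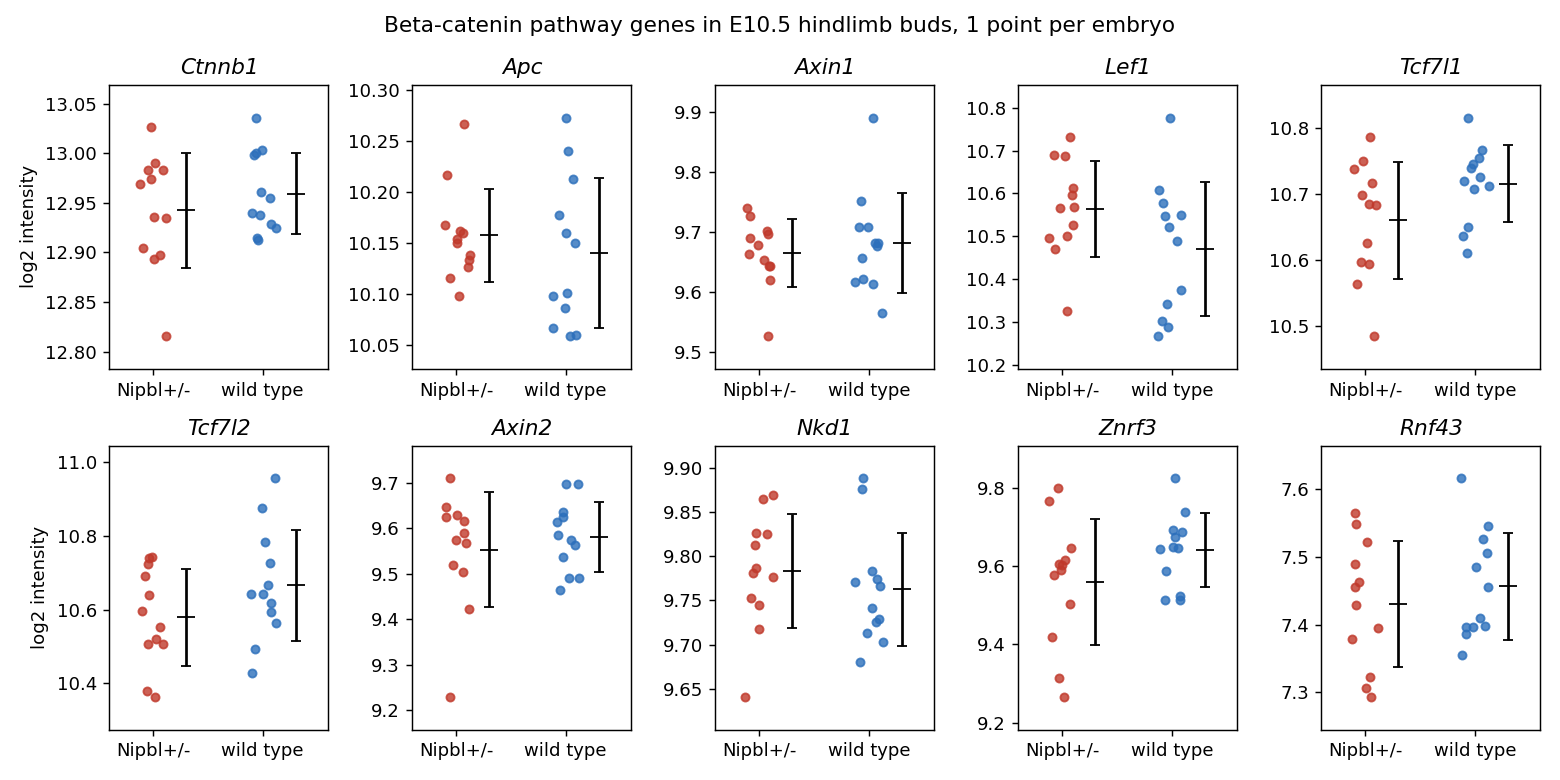
Log2 intensity (vertical axes, one scale per panel) of the 10 genes in each of 12 Nipbl+/- (red, left) and 12 wild type (blue, right) embryos, where black marks give each genotype's mean with its SD. The genotypes overlap in every panel, and the lowest point of Axin2, at 9.23, is Nipbl+/- embryo 9.

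Beta-catenin transcripts did not pass the test for a difference in mean. The log2 intensity of Ctnnb1 ran from 12.82 to 13.03 (median 12.95) in Nipbl+/- embryos and from 12.91 to 13.04 (median 12.95) in wild type embryos. The ranges overlapped, with Nipbl+/- embryos 1, 2, 3 and 11 below every wild type embryo. The lowest of them, embryo 2 at 12.82, was measured on an array of small spread. The log2 difference was -0.02 (95% interval -0.08 to 0.04, adjusted p = 0.953 from limma), the narrowest interval of the 10 genes.

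The scaffolds of the destruction complex gave a like picture. Apc, the large protein that holds beta-catenin in the complex, ran from 10.10 to 10.27 (median 10.15) in Nipbl+/- and from 10.06 to 10.27 (median 10.13) in wild type embryos, a log2 difference of 0.02 (95% interval -0.05 to 0.08, adjusted p = 0.961 from limma). Axin1, the scaffold made whether or not Wnt is present, ran from 9.53 to 9.74 (median 9.67) in Nipbl+/- and from 9.57 to 9.89 (median 9.68) in wild type embryos. Its log2 difference was -0.02 (95% interval -0.09 to 0.05, adjusted p = 0.967 from limma). For both genes the genotypes overlapped, and 7 of 12 Nipbl+/- embryos for Apc and 5 of 12 for Axin1 lay above the wild type mean.

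Of the DNA-binding factors, Lef1 had the highest and Tcf7l2 the lowest log2 difference of the 10 genes, and neither passed the test. Lef1, an activating partner of beta-catenin and itself a target, ran from 10.33 to 10.73 (median 10.57) in Nipbl+/- and from 10.27 to 10.78 (median 10.51) in wild type embryos. The ranges overlapped, although 11 of 12 Nipbl+/- embryos lay above the wild type mean, and 5 wild type embryos lay between 10.27 and 10.37. The log2 difference of Lef1 was 0.09 (95% interval -0.02 to 0.21, adjusted p = 0.649 from limma).

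Tcf7l1, which mostly represses targets until a signal arrives, ran from 10.49 to 10.79 (median 10.69) in Nipbl+/- and from 10.61 to 10.82 (median 10.72) in wild type embryos. Tcf7l2, which can activate or repress, ran from 10.36 to 10.74 (median 10.57) in Nipbl+/- and from 10.43 to 10.96 (median 10.64) in wild type embryos. In both, 8 of 12 Nipbl+/- embryos lay below the wild type mean, and the ranges overlapped. The log2 difference was -0.06 for Tcf7l1 (95% interval -0.13 to 0.02, adjusted p = 0.705 from limma). That of Tcf7l2 was -0.09 (95% interval -0.20 to 0.03, adjusted p = 0.718 from limma). With a covariate for embryo sex these differences were -0.09 for Tcf7l1 and -0.14 for Tcf7l2, both at an unadjusted p under 0.05 but with adjusted p = 0.338 for Tcf7l1 and 0.466 for Tcf7l2 from limma.

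The feedback inhibitors, the most direct readout, did not separate the genotypes. Axin2, a second Axin scaffold whose gene is switched on by beta-catenin, ran from 9.23 to 9.71 (median 9.58) in Nipbl+/- and from 9.46 to 9.70 (median 9.58) in wild type embryos. The medians agreed to the second decimal, and 6 of 12 Nipbl+/- embryos lay on either side of the wild type mean. Its log2 difference of -0.03 (95% interval -0.12 to 0.06, adjusted p = 0.946 from limma) is a ratio of 0.981 with an interval from 0.921 to 1.04.

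Nkd1, which restrains the pathway through Dishevelled, ran from 9.64 to 9.87 (median 9.78) in Nipbl+/- and from 9.68 to 9.89 (median 9.75) in wild type embryos (log2 difference 0.02, 95% interval -0.05 to 0.09, adjusted p = 0.946 from limma). Znrf3 and Rnf43 are membrane ubiquitin ligases that remove Frizzled receptors and are held back by R-spondins. Znrf3 ran from 9.27 to 9.80 (median 9.60) in Nipbl+/- and from 9.51 to 9.82 (median 9.65) in wild type embryos, and Nipbl+/- embryos 2, 7, 9 and 10 lay below every wild type embryo. Its log2 difference was -0.08 (95% interval -0.19 to 0.03, adjusted p = 0.711 from limma), and -0.05 without the 4 arrays of smallest spread (adjusted p = 0.802). Rnf43 ran from 7.29 to 7.57 (median 7.44) in Nipbl+/- and from 7.35 to 7.62 (median 7.43) in wild type embryos. Nipbl+/- embryos 3, 8 and 10 lay below every wild type embryo and wild type embryo 12 above every Nipbl+/- embryo, with a log2 difference of -0.03 (95% interval -0.10 to 0.05, adjusted p = 0.942 from limma).

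The embryos within a genotype did differ from each other, and some genes followed one another across embryos. Correlations were taken over all 24 embryos after the mean of each genotype was removed, for the 45 pairs of the 10 genes, with two-sided permutation tests within genotype and Benjamini-Hochberg adjustment over the 45 pairs. Pearson's r ran from -0.58 to 0.72, 8 pairs had an unadjusted p under 0.05 and 5 passed an adjusted p under 0.05. By Spearman's rho 5 pairs passed, 4 of them the same. All values of an embryo come from 1 array with its normalization and spread, and r between a gene and the interquartile range of the array ran from -0.18 for Rnf43 to 0.57 for Tcf7l1.

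**Figure D2:**
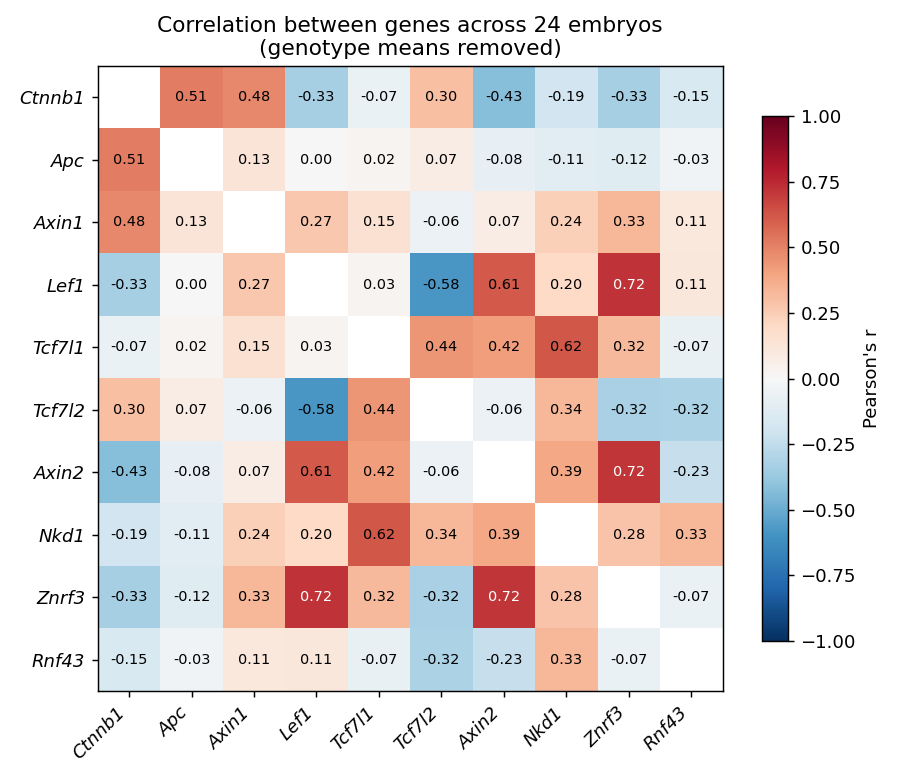
Pearson's r between the 10 genes across 24 embryos after removing genotype means, from -1 (blue) to 1 (red), with the value in each cell. Lef1, Axin2 and Znrf3 form 3 red cells between 0.61 and 0.72, and Lef1 with Tcf7l2 is the bluest cell at -0.58.

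Lef1, Axin2 and Znrf3, which are all beta-catenin targets, tended to be high in the same embryos. The feedback gene Nkd1 had r = 0.39 with Axin2, 0.20 with Lef1 and 0.28 with Znrf3. For Rnf43 the values were -0.23, 0.11 and -0.07, and no pair of Nkd1 or Rnf43 with these genes passed. What lies behind the shared variation was not tested. Lef1 and Znrf3 had r = 0.72 (permutation p = 1e-05, the smallest these permutations can give, adjusted p = 0.00045) and rho = 0.70 (permutation p = 0.00012, adjusted p = 0.0054). Within Nipbl+/- embryos r was 0.71, within wild type embryos it was 0.88, and it was 0.69 without the 2 embryos farthest from the median of Lef1. Leaving out 1 embryo at a time gave 0.66 to 0.76, and the pair passed each time.

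Axin2 and Znrf3 also had r = 0.72 (permutation p = 0.00023, adjusted p = 0.00517) and rho = 0.65 (permutation p = 0.00101, adjusted p = 0.0227). The value was 0.71 within Nipbl+/- and 0.75 within wild type embryos, 0.56 without the 2 embryos farthest from the median of Axin2 and 0.60 without Nipbl+/- embryo 9, and the pair passed whichever embryo was left out. Axin2 and Lef1 were less firmly tied, with r = 0.61 (permutation p = 0.00076, adjusted p = 0.0114) and rho = 0.55 (permutation p = 0.0068, adjusted p = 0.051). Their r was 0.60 within Nipbl+/- and 0.74 within wild type embryos, and 0.59 without the 2 embryos farthest from the median of Axin2. Among Nipbl+/- embryos that relation rested on embryo 9, since without it r was 0.14 there and 0.52 over both genotypes (adjusted p = 0.0707 by permutation), and without the 4 arrays of smallest spread the pooled r was 0.54 (adjusted p = 0.111 by permutation).

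Lef1 and Tcf7l2 ran against each other, with r = -0.58 (permutation p = 0.00412, adjusted p = 0.0371) and rho = -0.59 (permutation p = 0.00361, adjusted p = 0.0325). The value was -0.22 within Nipbl+/- and -0.81 within wild type embryos, and a difference between the genotypes was not tested. Nipbl+/- embryo 9 was low for both genes, and leaving it out gave -0.83 within Nipbl+/- and -0.80 over both genotypes. The adjusted p was above 0.05, at up to 0.138, when any 1 of 16 embryos was left out (Nipbl+/- 1, 4, 5 and 10 to 12, and wild type 1 and 4 to 12), with r from -0.58 to -0.49. Without the 2 embryos farthest from the median of Lef1 the value was -0.50, and with the median of each array set to 0 it was -0.33 (adjusted p = 0.179 by permutation). The sign turned when the mean of each replicate number was removed as a replicate block (r = 0.14, adjusted p = 0.549 by permutation). This setting makes the values of same-numbered embryos mirror images. The permutations did not keep such embryos together, so its p-values are too small. Same-numbered embryos are not known pairs, so this setting does not decide on the relation. With Znrf3, Tcf7l2 had r = 0.02 within Nipbl+/- embryos, or -0.36 without embryo 9, and -0.87 within wild type embryos. With Axin2 the values were 0.46 within Nipbl+/- embryos, or 0.14 without embryo 9, and -0.80 within wild type embryos.

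The fifth pair was Tcf7l1 with Nkd1, at r = 0.62 (permutation p = 0.00134, adjusted p = 0.0151) and rho = 0.62 (permutation p = 0.00189, adjusted p = 0.0283). It was 0.79 within Nipbl+/- and 0.40 within wild type embryos, 0.52 without the 2 embryos farthest from the median of Tcf7l1, 0.49 without Nipbl+/- embryo 9 (adjusted p = 0.0813 by permutation), 0.58 without Nipbl+/- embryo 5 (adjusted p = 0.0502 by permutation) and 0.49 without the 4 arrays of smallest spread (adjusted p = 0.133 by permutation). Ctnnb1 itself was not positively related to its targets. Its r was -0.43 with Axin2 (adjusted p = 0.292 by permutation), -0.33 with Lef1 and -0.33 with Znrf3. After the interquartile range of the array was removed by regression, an alternative chosen after seeing the data, these values were -0.70 with Axin2 (adjusted p = 0.0054 by permutation), -0.56 with Lef1 (adjusted p = 0.0162 by permutation) and -0.68 with Znrf3 (adjusted p = 0.00648 by permutation), and the 5 pairs above passed as well.

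**Figure D3:**
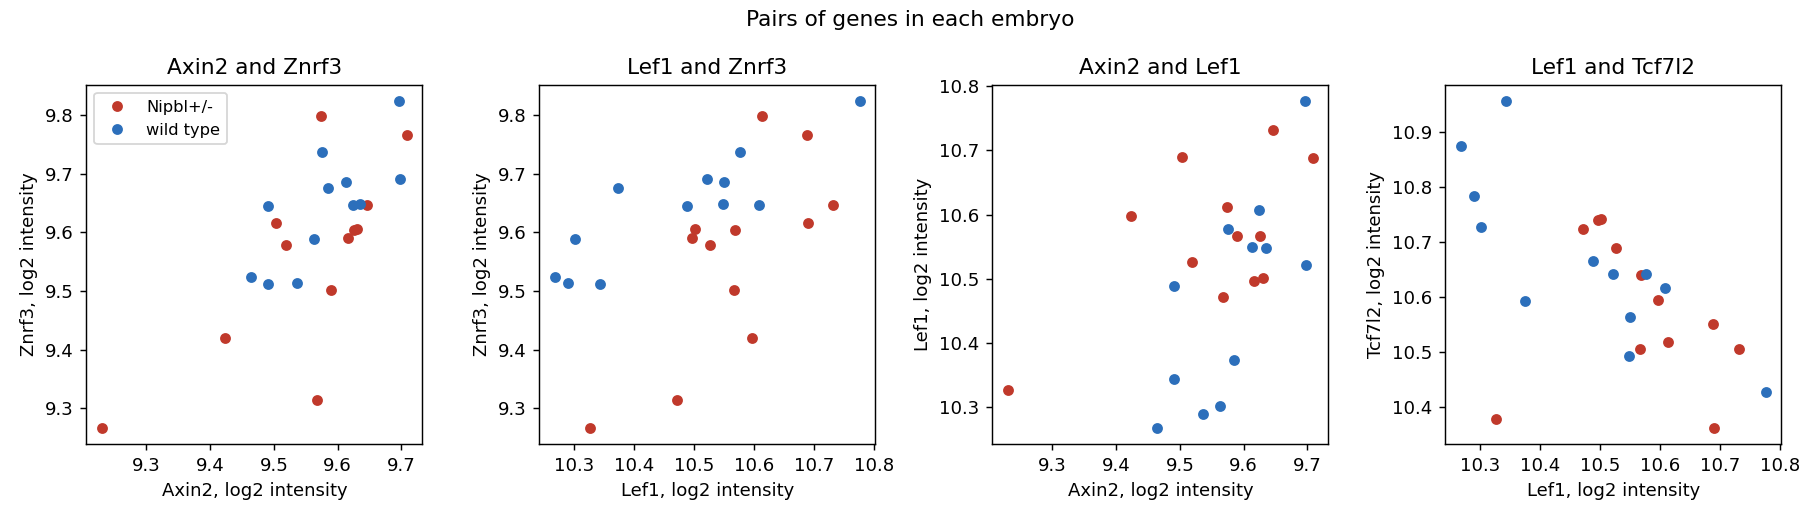
Log2 intensity of 4 pairs of genes, 1 point per embryo, Nipbl+/- in red and wild type in blue. Znrf3 climbs with Axin2 and with Lef1 in both genotypes, Tcf7l2 declines with Lef1, and Nipbl+/- embryo 9 (Axin2 at 9.23) lies at the lower left of every panel.

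Other genes followed Axin2 and Lef1 more closely than the pathway genes did. Of the 19936 genes compared with Axin2 in the same way, Znrf3 ranked 42 and Lef1 343 by r. The 5 at the top were Hrob, Sh3bp1, Arhgap39, the kinase gene Mtor and Prdm10, with r between 0.79 and 0.81. For Lef1, Znrf3 ranked 249 and Axin2 680, and the 5 at the top were the cadherin gene Cdh6, the nuclear receptor gene Nr6a1, Greb1l, the phospholipase gene Plcg2 and Smyd5, with r between 0.89 and 0.90. These genes were picked for their r out of all genes, so the values are a description.

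Promoter sequences are shown for Axin2 and Lef1 because this pair passed by Pearson's r over all 24 embryos (r = 0.61, adjusted p = 0.0114 by permutation). It did not pass by Spearman's rho (adjusted p = 0.051 by permutation). Nor did it pass by r when 1 Nipbl+/- embryo, named above, was left out (adjusted p = 0.0707 by permutation). RefSeq windows of build GRCm38.p6, from 250 bases before to 50 bases after a transcript start, were matched by symbol for 7 of the 10 genes and held 13 starts. They were searched on both strands for the binding motif of Tcf and Lef proteins in the form CTTTGAA, the form CTTTGAT, the form CTTTGTA and the form CTTTGTT, and for the core CTTTG that all of these contain. The Axin2 window (chr11:108920099-108920398, plus strand, 70.0% G and C) held neither a full motif nor the core. It lies downstream of the annotated gene start (chr11:108917828), which was not searched. The same is true of Nkd1, whose gene start is chr8:88521342 and whose window is chr8:88527383-88527682. The window of the most upstream Lef1 start (chr3:131110047-131110346, plus strand, 67.3% G and C) held the core at positions -161 and 2, counted from the start, and no full motif. Capitals mark the core.
Axin2: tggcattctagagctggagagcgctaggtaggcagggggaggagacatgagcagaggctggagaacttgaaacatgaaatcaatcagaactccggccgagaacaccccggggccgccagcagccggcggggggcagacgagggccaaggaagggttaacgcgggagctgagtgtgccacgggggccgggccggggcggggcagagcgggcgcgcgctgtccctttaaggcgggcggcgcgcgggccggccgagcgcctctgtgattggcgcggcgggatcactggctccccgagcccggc
Lef1: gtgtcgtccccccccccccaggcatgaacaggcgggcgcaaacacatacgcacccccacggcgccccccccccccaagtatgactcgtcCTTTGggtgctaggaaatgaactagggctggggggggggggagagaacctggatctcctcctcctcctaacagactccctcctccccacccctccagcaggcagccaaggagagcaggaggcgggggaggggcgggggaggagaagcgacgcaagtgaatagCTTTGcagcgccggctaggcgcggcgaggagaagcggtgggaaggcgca

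A full motif stood in 2 of the 13 windows, both at internal starts, in Lef1 (chr3:131156044-131156343, CTTTGTA on the opposite strand, first base on the printed strand at position -147) and in Tcf7l2 (chr19:55895071-55895370, CTTTGTT at position -14). The core stood in 7 of the 13. Over all 32851 windows of the table, 16.9% held a full motif and 53.9% held the core. These 2 stretches are shown, with the motif in capitals, because they hold the full motifs found among the genes examined. A match is a run of letters and was not tested as a binding site, and the arrays do not tell these starts apart.
Lef1 internal start: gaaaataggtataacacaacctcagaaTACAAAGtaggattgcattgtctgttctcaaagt
Tcf7l2 internal start: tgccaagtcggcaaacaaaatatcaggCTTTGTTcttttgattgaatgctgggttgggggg

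The rest of the pathway was examined as 5 lists. The 27 cytoplasmic transducers include Dishevelleds, kinases, tankyrases and further inhibitors, and their median log2 difference was 0.0032. At an adjusted p under 0.05 in limma, 0 were higher and 0 lower in Nipbl+/-, against 0.286% of all genes higher and 0.527% lower. When p was left unadjusted, 2 were higher and 1 was lower, against 4.13% of all genes higher and 5.14% lower. The smallest p belonged to Btrc, the ubiquitin ligase subunit that recognises phosphorylated beta-catenin, at 10.60 to 10.87 (median 10.67) in Nipbl+/- and 10.48 to 10.69 (median 10.61) in wild type embryos (log2 difference 0.10, adjusted p = 0.243 from limma). Next was Tnks2, a tankyrase that marks Axin for removal, with a log2 difference of 0.10 (adjusted p = 0.379 from limma). For each, 11 of 12 Nipbl+/- embryos exceeded the wild type mean.

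Of 18 nuclear cofactors, among them the Bcl9 and Pygo adaptors of beta-catenin and the Groucho repressors, 0 passed in either direction in limma. The median log2 difference was 0.02. At an unadjusted p under 0.05, 1 was higher and 1 lower, against 4.13% of all genes higher and 5.14% lower. Those 2 were the Groucho genes Tle1, with a log2 difference of -0.16 (adjusted p = 0.288 from limma), and Tle4, with 0.10 (adjusted p = 0.451 from limma). Of 6 other catenins, which mostly serve cell adhesion, 0 passed in limma. At an unadjusted p under 0.05, 1 was higher and 0 were lower, against the same shares of all genes. The higher one was Ctnnd1, p120-catenin, above the wild type mean in 12 of 12 Nipbl+/- embryos (log2 difference 0.10, adjusted p = 0.197 from limma), and it passed once array spread was a covariate (adjusted p = 0.0481). Next was Ctnna1, alpha-catenin, with a log2 difference of 0.03 (adjusted p = 0.869 from limma).

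Beyond the feedback genes, 18 other genes reported as Wnt targets gave 0 higher and 1 lower in Nipbl+/-, with 17 not passing, against 0.286% of all genes higher and 0.527% lower. When p was left unadjusted, 0 were higher and 4 were lower, against 4.13% of all genes higher and 5.14% lower, and the median log2 difference of the list was -0.03. The lower one was Jag1, a Notch ligand. Its log2 intensity ran from 8.53 to 9.20 (median 8.86) in Nipbl+/- and from 8.85 to 9.58 (median 9.24) in wild type embryos. The ranges overlapped, but 12 of 12 Nipbl+/- embryos lay below the wild type mean, and the log2 difference was -0.35 (95% interval -0.52 to -0.19, limma, adjusted p = 0.0296). The call did not hold with array medians set to 0 (adjusted p = 0.0664), in the t-test on linear values (0.0593) or without the 4 arrays of smallest spread (0.0578).

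Next by p was Bambi, a pseudoreceptor that limits Bmp signalling, at 10.06 to 10.42 (median 10.25) in Nipbl+/- and 10.20 to 10.64 (median 10.39) in wild type embryos (log2 difference -0.17, adjusted p = 0.105 from limma). It passed when array spread was a covariate (adjusted p = 0.0151 from limma). The 2 targets Sp5 and Dkk1, named here after their values were seen because both are common readouts of the pathway, had log2 differences of -0.02 (adjusted p = 0.985 from limma) and 0.10 (adjusted p = 0.573 from limma).

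At the cell surface, the receptor Fzd8 and the secreted activator Rspo3 were lower in Nipbl+/-. Of 19 surface partners, the R-spondins and their Lgr receptors, the Frizzled receptors and the Lrp coreceptors, 0 were higher and 2 were lower in Nipbl+/-, with 17 not passing, against 0.286% of all genes higher and 0.527% lower. When p was left unadjusted, 1 was higher and 6 were lower, against 4.13% of all genes higher and 5.14% lower. Their median log2 difference was -0.07, and 14 of the 19 differences were negative, against 10668 of all 19937 genes. The R-spondins ran both ways. Log2 differences were 0.29 for Rspo1 (adjusted p = 0.418 from limma) and 0.10 for Rspo4 (adjusted p = 0.765 from limma). They were -0.26 for Rspo2 (adjusted p = 0.143 from limma) and -0.43 for Rspo3. A difference between this list and the others was not tested.

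The first was the receptor Fzd8, at 8.02 to 8.28 (median 8.22) in Nipbl+/- and 8.10 to 8.56 (median 8.44) in wild type embryos, with 12 of 12 Nipbl+/- embryos below the wild type mean (log2 difference -0.22, 95% interval -0.32 to -0.12, limma, adjusted p = 0.0151). The other was Rspo3, a secreted R-spondin that spares Frizzled receptors from Znrf3 and Rnf43, at 7.68 to 8.76 (median 8.22) in Nipbl+/- and 8.30 to 9.29 (median 8.67) in wild type embryos. Here 11 of 12 Nipbl+/- embryos were under the wild type mean, with a log2 difference of -0.43 (95% interval -0.65 to -0.21, limma, adjusted p = 0.0496). Neither gene passed once the median of every array was set to 0 (adjusted p = 0.0681 for Fzd8 and 0.0961 for Rspo3), and that of Rspo3 also without the 4 arrays of smallest spread (0.120), in the t-test on linear values (0.116) and with all probe sets tested (0.0627).

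**Figure D4:**
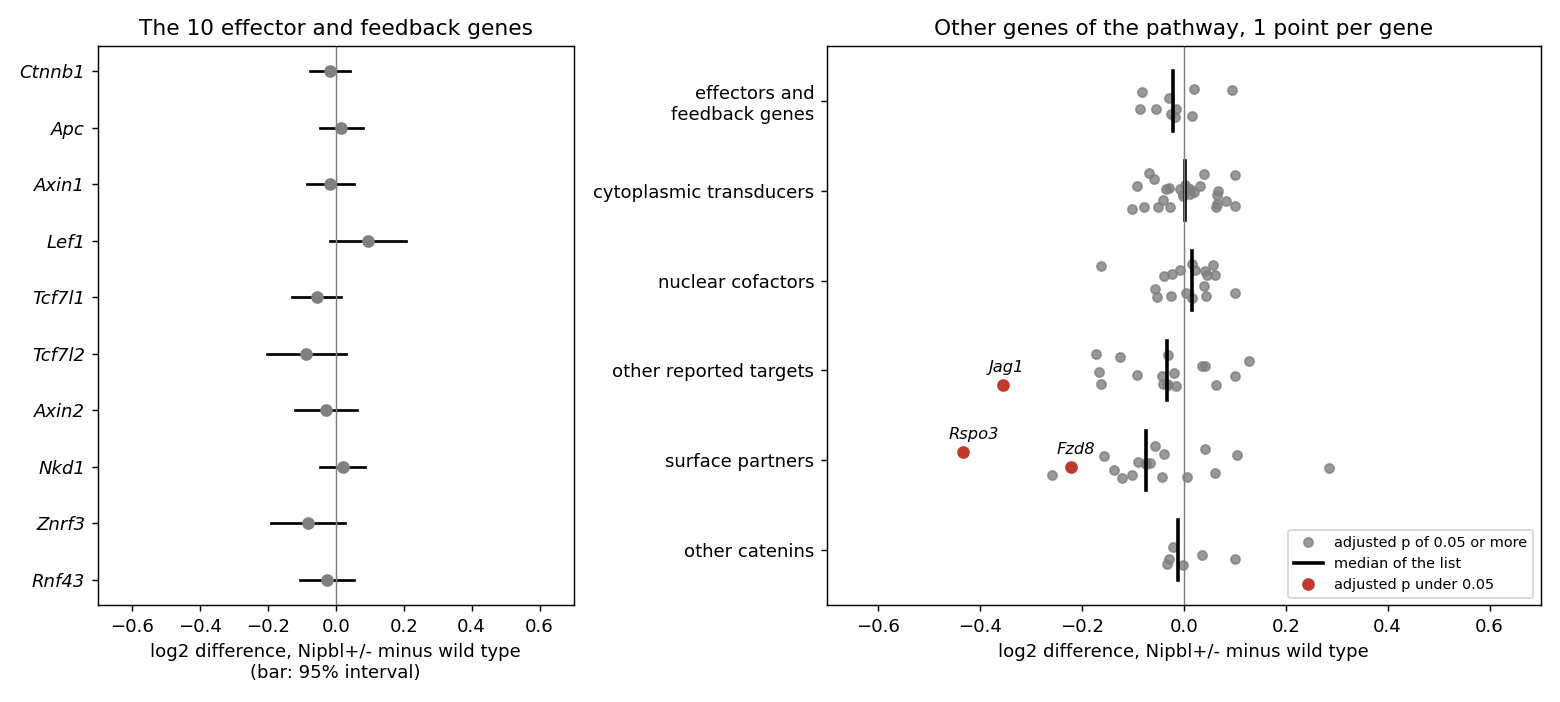
Left, log2 difference (Nipbl+/- minus wild type) of the 10 genes with 95% intervals, all of which include 0. Right, the same difference for these genes and the 5 other lists, 1 point per gene with the median of each list as a bar, where Jag1, Fzd8 and Rspo3 (red) passed an adjusted p under 0.05.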

How the data were processed

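RNA of hindlimb buds from 12 Nipbl+/- and 12 wild type embryos was measured on 1 array each. The authors pre-processed the array files in GenePattern. RMA is named in the submitters' processing notes, and the deposited values are therefore log2 intensities, background-corrected, normalized between arrays and summarised per probe set. Normalization hides a change shared by most genes. Of 28159 probe sets, 21640 had 1 symbol in the platform annotation. Array medians ran from 7.24 to 7.39, and 0 arrays were identical. Detection limits and litters were not used here, and replicate numbers were not treated as pairs (5 of 12 same-numbered pairs correlated above 0.1, median -0.02).

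Genotypes were compared with limma 3.58.1 in R 4.3.3 (lmFit, eBayes), with Benjamini-Hochberg adjustment over 19937 genes. The fit was tested on simulated data, where it recovered 40% of log2 changes of 0.2 and 80% of changes of 0.3. Correlations used 100000 permutations within genotype in Python 3.11.15, and figures were drawn with matplotlib 3.10.9. The 10 genes and the other lists were chosen with earlier results of these data known. Named besides the 10 genes are Nipbl, the called genes of each list or its 2 genes of smallest p, the 5 genes most like Axin2 and Lef1, and the marker Krt5. Also named are Sp5, Dkk1, Rspo1, Rspo2 and Rspo4, chosen after their values were seen. Tcf7 and Tbxt, listed too, and some listed markers were not analysed here. Array spread as a covariate, and leaving out arrays or single embryos, were added after seeing the data.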

Additional observations from a re-analysis of the deposited data

How the results depend on the processing

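The 10 differences kept their sign in all 120 values from 12 other settings of the fit, with adjusted p from 0.338 to 0.998, and the number of the 10 genes called higher or lower was 0 in each setting, at an adjusted p under 0.25, and in each of 24 fits that left out 1 embryo. With replicate number as a block (replicate block) that number was also 0, Tcf7l2 was the 1 gene at an unadjusted p under 0.05 (adjusted p = 0.455), and no list lost or gained a call. The count of lower reported targets was 2 with array spread or the first component of residual variation as a covariate. That component held 34.3% of residual variance and had r = -0.99 with array spread, so these covariates make nearly the same adjustment. The count was also 2 at an adjusted p under 0.25. It was 0 with array medians set to 0, in the t-test on linear values and without the 4 arrays of smallest spread. The count of lower surface partners was 0 with array medians set to 0, 1 with all probe sets tested, in the t-test and without the 4 arrays, 3 with either covariate, and 4 at an adjusted p under 0.25. The count of higher other catenins was 1 with either covariate and at an adjusted p under 0.25, and that of higher cytoplasmic transducers was 1 at that threshold. Nipbl stayed lower in every setting (log2 difference -0.67 to -0.65). Pairs passing among the 45 numbered 8 after array spread was removed, 16 with array medians set to 0 and 8 with the replicate block, and these held 5, 4 and 4 of the 5 pairs. With the replicate block, Lef1 and Tcf7l2 had r = 0.14 (adjusted p = 0.549 by permutation). Permutation p-values are too small with that block, which makes same-numbered embryos mirror images, so its count of passing pairs may be too high. Leaving out 1 embryo at a time gave 3 to 6 passing pairs. Without genotype centring Tcf7l1 and Nkd1 missed the threshold (r = 0.51, adjusted p = 0.0718 by permutation). Causes of these changes were not tested.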
